A study of Mus musculus with 15 samples.

Results

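The genes described here encode glycolytic enzymes that skeletal muscle uses, several of them in a muscle-specific form, both common lactate dehydrogenase subunits, and the enzymes that break down and build muscle glycogen. Every non-control probe of the array whose accession belongs to Hk2, Pfkm, Aldoa, Pgk1, Pgam2, Eno3, Ldha, Ldhb, Pygm or Gys1 was taken, which gave 13 probes of 10 genes, out of 55681 probes and 21154 named genes on the array. Ldha had 3 probes, Gys1 had 2 and each of the others had 1, and probes of a gene are numbered from the brightest down. RNA of femoral segments of male C57BL/6J mice, 9-week-old per the labels, was hybridised in Cy5 against a commercial reference RNA pooled from 11 mouse cell lines in Cy3 on 15 arrays, 1 for each sample. By the study's methods 9 weeks is about the age at surgery, and the mice were killed some weeks later. G-Sham (4 arrays) and FLT-Sham (4 arrays) were unoperated mice kept on the ground or flown to the International Space Station. G-Surgery (4 arrays) and FLT-Surgery (3 arrays) had a segmental bone defect cut into the femur, filled with a polymer and tricalcium phosphate graft with a saline-soaked sponge around it, and held by a needle. The labels call all of this tissue callus, although the Sham segments come from intact femurs of the same region.

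Glycolysis splits glucose into pyruvate and yields ATP without oxygen. Skeletal muscle feeds it from blood glucose and from its own glycogen store, and expresses muscle-specific forms of several of the enzymes, while other tissues use sister genes. Fast fibres rely on it most, and they pass the pyruvate to lactate when demand outruns the mitochondria. Bone cells and cartilage cells are glycolytic as well, so transcripts of the shared enzymes can come from any cell of the segment. In a bulk RNA sample, fewer cells of a type and less RNA per cell cannot be told apart.

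The promoters of 4 of the genes are printed because Pgam2, Eno3 and Hk2 moved together over the arrays, as given below, while Pgk1 had a lower correlation with the muscle markers. Each line gives the 250 bases before the start in RefSeq, build GRCm38.p6, read 5′ to 3′ on the strand of the gene. Capitals mark E-boxes (CANNTG, bound by MyoD-family and other helix-loop-helix factors), the hypoxia response core ACGTG, which can lie inside an E-box, and the MEF2 motif, all searched on both strands.
Pgam2, chr11:5803797-5804046, minus strand: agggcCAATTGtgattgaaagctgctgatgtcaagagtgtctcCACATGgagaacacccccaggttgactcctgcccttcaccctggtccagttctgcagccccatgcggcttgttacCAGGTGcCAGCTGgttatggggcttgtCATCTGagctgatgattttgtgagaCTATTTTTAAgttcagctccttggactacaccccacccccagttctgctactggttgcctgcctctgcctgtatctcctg
Eno3, chr11:70656926-70657175, plus strand: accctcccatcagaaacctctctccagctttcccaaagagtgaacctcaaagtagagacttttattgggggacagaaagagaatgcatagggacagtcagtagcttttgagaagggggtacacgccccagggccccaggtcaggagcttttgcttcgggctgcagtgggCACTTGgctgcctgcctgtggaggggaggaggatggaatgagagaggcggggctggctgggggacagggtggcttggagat
Hk2, chr6:82774455-82774704, minus strand: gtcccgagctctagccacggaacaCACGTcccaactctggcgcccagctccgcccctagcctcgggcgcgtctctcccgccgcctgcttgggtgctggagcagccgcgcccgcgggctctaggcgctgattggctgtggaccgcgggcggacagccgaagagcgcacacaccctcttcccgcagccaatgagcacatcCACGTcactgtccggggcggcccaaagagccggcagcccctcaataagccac
Pgk1, chrX:106186850-106187099, plus strand: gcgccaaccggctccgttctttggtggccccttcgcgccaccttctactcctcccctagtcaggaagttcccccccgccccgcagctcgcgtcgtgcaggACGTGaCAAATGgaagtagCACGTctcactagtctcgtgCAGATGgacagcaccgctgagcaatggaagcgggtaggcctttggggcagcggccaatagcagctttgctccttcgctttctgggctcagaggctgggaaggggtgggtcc

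The Pgam2 window held 5 E-boxes and 1 MEF2 match, and the Eno3 window held 1 E-box. The Hk2 window held 2 ACGTG cores and no E-box, and the Pgk1 window held 2 cores and 2 E-boxes. All 10 genes had at least 1 start in the RefSeq table, with 16 windows in all, and the Ldhb window held none of these motifs. Among 32851 promoter windows of the same length, 66.2% held an E-box, 16.6% held ACGTG, 2.92% held a MEF2 match and 12.4% held TATAAA, which no window of the 10 genes contained. A match only describes the letters of the window, and these data do not measure binding there.

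Between 12493 and 21461 probes per array were above background in Cy5, and the median by group was lowest in FLT-Surgery (14125) and highest in FLT-Sham (20144). The arrays came from 3 slides, of which the third held only G-Sham replicate 4, a rerun. All values are log2 of the deposited Cy5 over Cy3 ratio, so each describes 1 probe against the reference RNA, and no level was compared between probes. A probe was called where the fold was at least 2 and the unadjusted p from limma at most 0.01, the cut-off of the study, and the adjusted p over all probes stands beside it. All 13 probes were tested in each of the comparisons, and none had an adjusted p of 0.05 or less in any of them. Every probe was above background on all 15 arrays except Hk2, which was not on FLT-Surgery replicates 3 and 5, and Pgam2, which was not on FLT-Surgery replicate 5.

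The question behind the first set of values is what the muscle content of these segments was, since the genes are named for muscle. Of 12 markers of fast skeletal muscle, such as Acta1, Ckm and Myh4, between 9 and 12 were above background on each array. The mean log2 ratio of these markers was 6.57, 8.16, 8.11 and 8.53 in G-Sham and 8.81, 8.90, 6.68 and 8.64 in FLT-Sham. It was 6.18, 7.93, 7.59 and 7.67 in G-Surgery and 7.32, 4.71 and 4.82 in FLT-Surgery, in the order of replicates 1, 3 and 5 for that group. FLT-Surgery replicates 3 and 5 were therefore below every other array. The slow-fibre markers (8 genes) had a mean between 2.77 and 7.13 outside FLT-Surgery and between -0.51 and 2.02 in it. Of 10 osteoblast and osteocyte markers, between 2 and 6 were above background per array, and of 6 chondrocyte markers between 1 and 4. Col2a1, which encodes the collagen of cartilage, was above background on all 4 G-Surgery arrays and on no G-Sham array. In flight it was above background on 3 of 4 FLT-Sham and 1 of 3 FLT-Surgery arrays. Col10a1 and Matn3 of the same list were above background on no array.

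**Figure D1:**
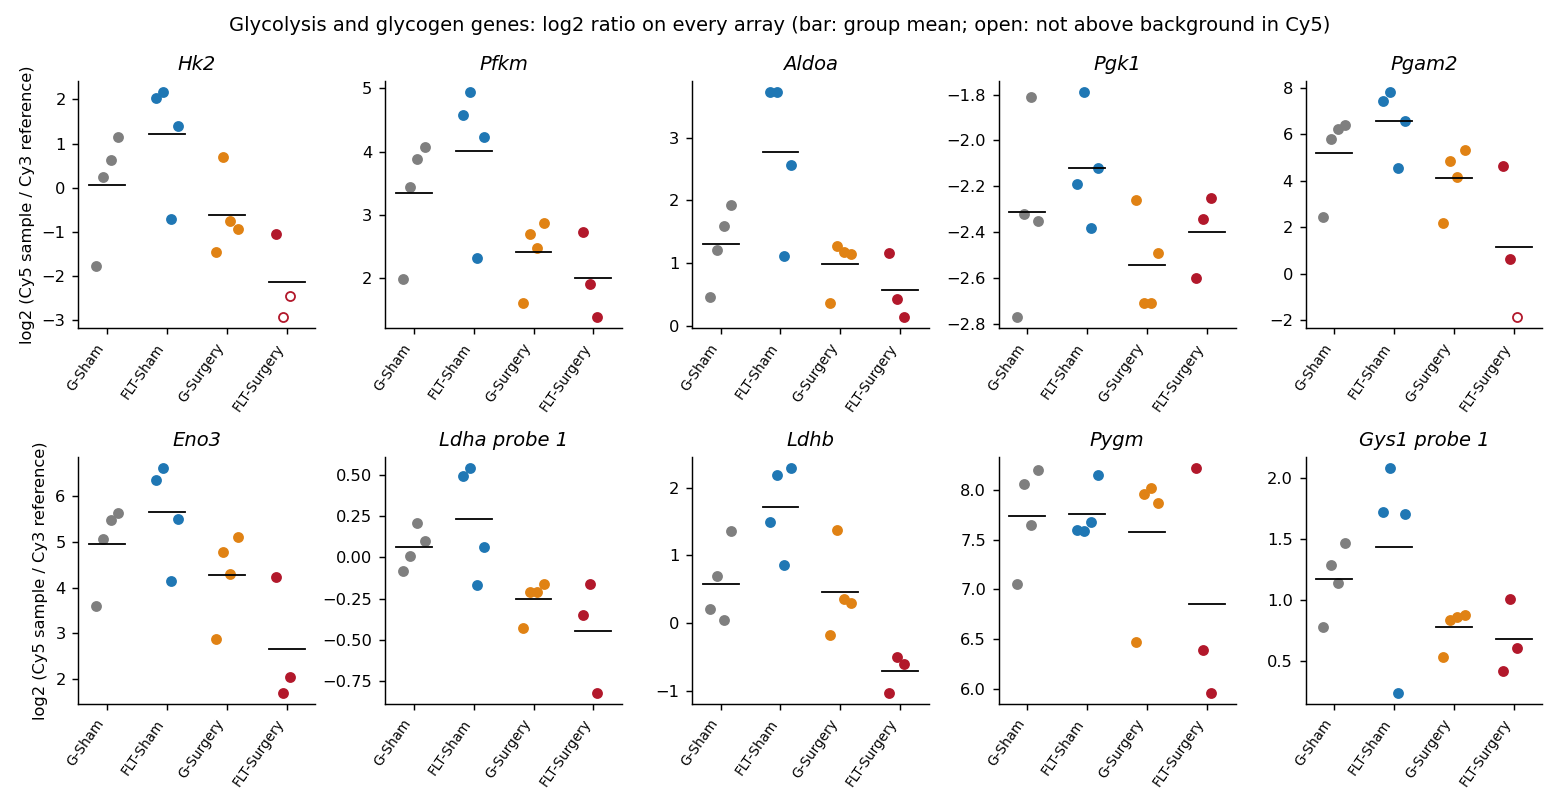
Log2 ratio of Cy5 sample over Cy3 reference on the vertical axis, for the leading probe of each of the 10 genes, with 1 point per array in the 4 groups and a bar at the group mean. Open points were not above background in Cy5. The FLT-Surgery points of Hk2 and Ldhb lie below all FLT-Sham points, while FLT-Surgery replicate 1 of Pgam2 (4.62) and Eno3 (4.24) lies within the range of FLT-Sham.

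Surgery in spaceflight, the comparison of FLT-Surgery with FLT-Sham mice, gave the only calls in a comparison of 2 groups. Hk2, Pgam2, Eno3 and Ldhb were lower after surgery by 5.35-fold to 43.8-fold, which makes 4 of 13 probes (30.8%) where 6.65% of all 19136 probes tested were called. The folds of Hk2 (10.2) and Pgam2 (43.8) include FLT-Surgery arrays that were not above background, 2 of 3 for Hk2 and 1 of 3 for Pgam2, so they are fitted values and not measured exactly. Another 8 probes had fold changes below 0 that were not called, and 1 lay above 0 by 0.03. The median over the 13 probes was -1.23 on the log2 scale, and the median over all probes tested was -0.28.

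Hk2 encodes hexokinase 2, the insulin-regulated hexokinase of muscle that phosphorylates glucose at entry. Its log2 ratio was 2.02, 2.16, -0.71 and 1.40 in FLT-Sham replicates 4, 6, 8 and 9, and -1.04, -2.93 and -2.44 in FLT-Surgery replicates 1, 3 and 5. The highest FLT-Surgery array was below the lowest FLT-Sham array, which was replicate 8. The fold change was -3.35 on the log2 scale (SE 0.80, 95% interval -5.20 to -1.50); its adjusted p was 0.136 by limma. On the ground the arrays overlapped, with -1.77, 0.24, 0.62 and 1.14 in G-Sham and -1.46, 0.70, -0.76 and -0.93 in G-Surgery.

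Pgam2 encodes the muscle phosphoglycerate mutase, which moves the phosphate late in glycolysis. It stood at 7.42, 7.81, 4.53 and 6.57 in FLT-Sham and at 4.62, 0.65 and -1.88 in FLT-Surgery, the last of them not above background. FLT-Surgery replicate 1 was slightly above FLT-Sham replicate 8, so the groups overlapped. Pgam2 thus differed by -5.45 on the log2 scale (SE 1.48, interval -8.89 to -2.02, adjusted p = 0.145 by limma). G-Sham gave 2.44, 5.79, 6.22 and 6.41, and G-Surgery gave 2.19, 4.87, 4.16 and 5.33. Replicate 1 was the lowest array of both ground groups.

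Eno3 encodes the muscle enolase, which makes phosphoenolpyruvate in the next step. The ratio was 6.36, 6.62, 4.15 and 5.51 in FLT-Sham and 4.24, 1.69 and 2.04 in FLT-Surgery, an order of arrays close to that of Pgam2. The groups overlapped through FLT-Sham replicate 8 and FLT-Surgery replicate 1. Eno3 differed by -3.00 on the log2 scale (SE 0.81, interval -4.89 to -1.12, adjusted p = 0.145 by limma). In G-Sham the ratio was 3.60, 5.06, 5.49 and 5.63, and in G-Surgery it was 2.88, 4.77, 4.30 and 5.11.

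Ldhb encodes the lactate dehydrogenase subunit that prevails in heart and oxidative fibres. Its ratio was 1.50, 2.18, 0.86 and 2.29 in FLT-Sham and -1.03, -0.50 and -0.61 in FLT-Surgery, with no overlap. Ldhb differed by -2.42 on the log2 scale (SE 0.45, interval -3.47 to -1.37, adjusted p = 0.112 by limma). The 3 FLT-Surgery arrays were also below all G-Surgery arrays (-0.17, 1.37, 0.36 and 0.30) and all G-Sham arrays (0.21, 0.69, 0.05 and 1.36). Unlike Pgam2 and Eno3, FLT-Surgery replicate 1 was the lowest array for Ldhb. Hk2 and Ldhb made 2 of 13 probes whose arrays did not overlap, beside 14.7% of all probes tested.

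Pfkm, the muscle phosphofructokinase that commits glucose to glycolysis, and Aldoa, the aldolase of muscle that splits the sugar, had folds of 4.01 and 4.60 in the same direction but were not called. Pfkm was at 4.58, 4.94, 2.31 and 4.23 in FLT-Sham and at 2.73, 1.91 and 1.38 in FLT-Surgery, for a fold change of -2.00 on the log2 scale (SE 0.69, adjusted p = 0.161 by limma). Aldoa was at 3.72, 3.72, 1.11 and 2.56 in FLT-Sham and at 1.17, 0.43 and 0.14 in FLT-Surgery, for a fold change of -2.20 (SE 0.69, adjusted p = 0.155 by limma). In both genes FLT-Sham replicate 8 was the array that overlapped with FLT-Surgery. Pgk1, the phosphoglycerate kinase that yields the first ATP and has no muscle form, changed by -0.28 with an interval of -1.05 to 0.50.

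The remaining 6 probes belonged to lactate and glycogen enzymes. Ldha encodes the lactate dehydrogenase subunit of glycolytic muscle, and its probes gave -0.67, 0.03 and -1.23 on the log2 scale, with intervals of -1.53 to 0.18, -0.70 to 0.77 and -2.35 to -0.12. Pygm, the muscle glycogen phosphorylase that releases glucose units from glycogen, gave -0.90 (interval -2.22 to 0.42). Gys1, the muscle glycogen synthase that does the reverse, gave -0.76 and -0.66 with its probes, each with an interval that includes 0.

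**Figure D2:**
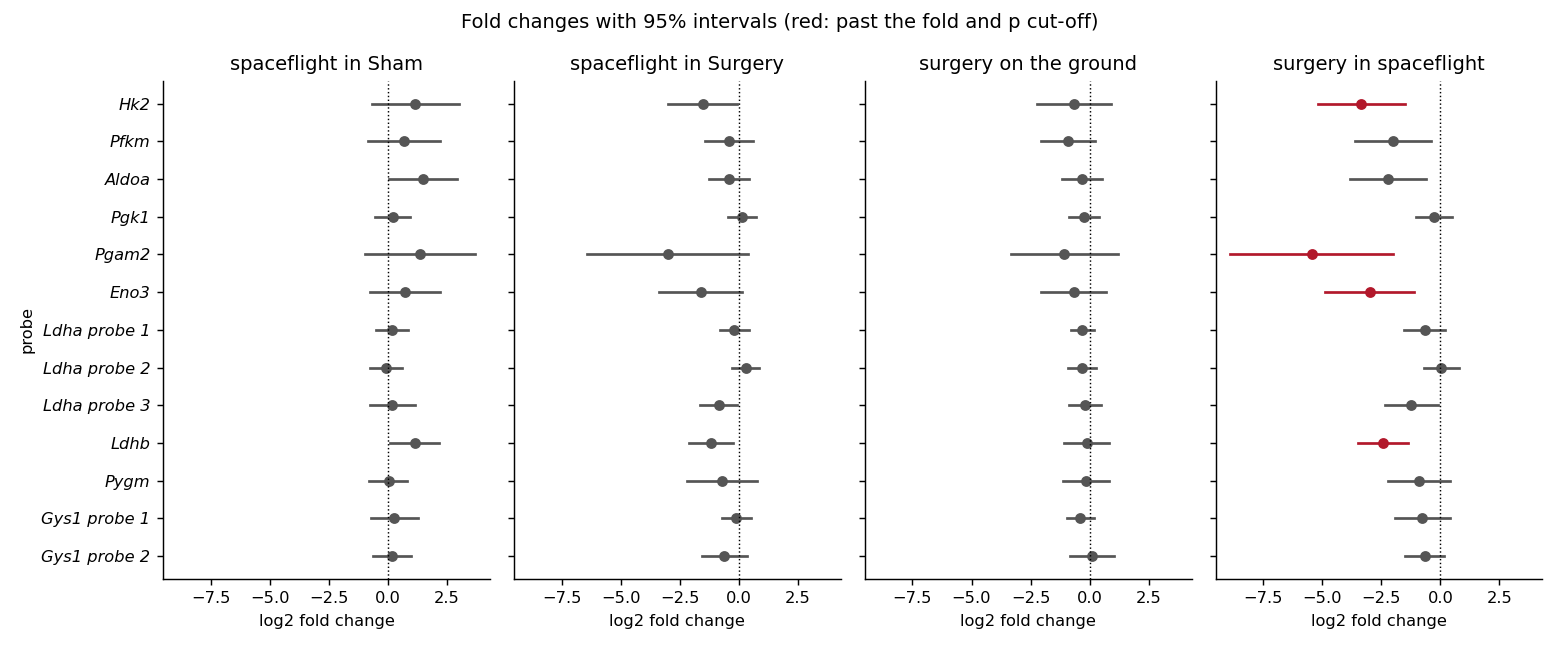
Log2 fold change on the horizontal axis with its 95% interval for each of the 13 probes, in the comparisons of 2 groups, where red marks probes past the cut-off. The red probes are Hk2, Pgam2, Eno3 and Ldhb in surgery in spaceflight, and the comparison of surgery on the ground and both spaceflight comparisons have none.

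The calls in surgery in spaceflight rested on few arrays. With FLT-Sham replicate 8 left out 7 probes were called, with FLT-Surgery replicate 1 left out 5, with FLT-Sham replicate 4, 6 or 9 left out only Hk2 and Ldhb, and with FLT-Surgery replicate 3 or 5 left out only Ldhb. Slide moved with the groups, since 1 FLT-Sham and 2 FLT-Surgery arrays shared the first slide and 3 FLT-Sham and 1 FLT-Surgery arrays the second. Within the first slide Hk2 differed by -4.70, Pgam2 by -8.04, Eno3 by -4.50 and Ldhb by -2.05, and within the second by -1.98, -1.68, -1.18 and -2.80. With slide as a block only Ldhb was called (-2.45, adjusted p = 0.335 by limma). When all 15 arrays shared 1 estimate of the spread, the adjusted p was 0.046 for Hk2, 0.0472 for Pgam2, 0.0477 for Eno3, 0.033 for Ldhb and 0.0494 for Aldoa.

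**Figure D3:**
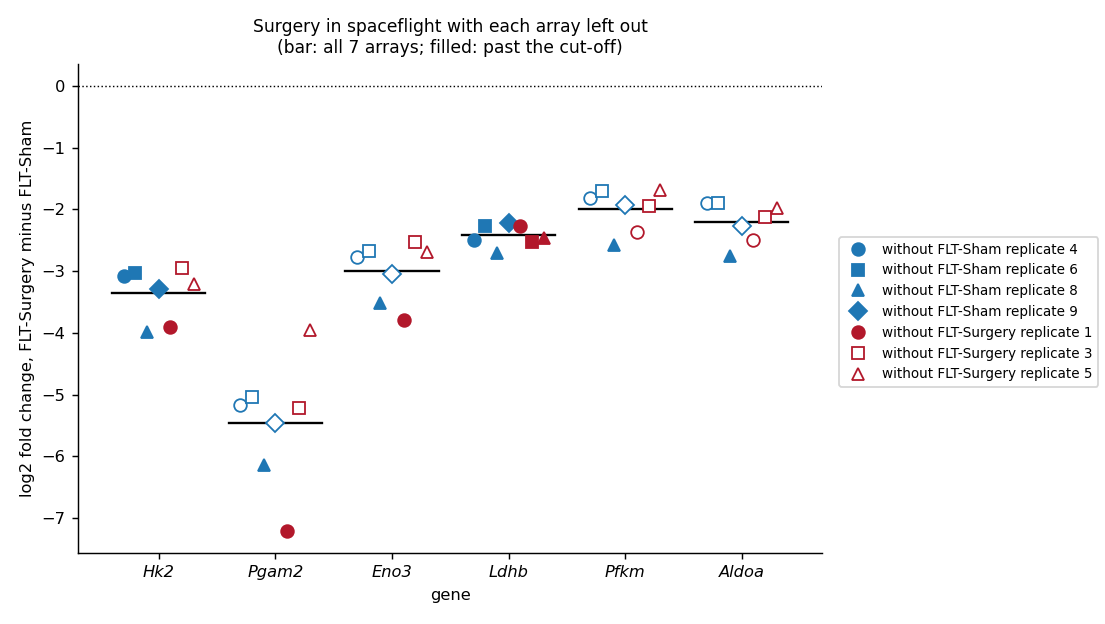
Log2 fold change of FLT-Surgery minus FLT-Sham on the vertical axis for 6 genes, with 1 symbol for each array left out and a bar for the value with all 7 arrays, and filled symbols are past the cut-off. All symbols lie below 0, and Ldhb (-2.70 to -2.22) is filled throughout.

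The marker lists moved in the same comparison. Of the fast-muscle markers 11 of 12 had a fold change below 0 with 2 called lower (Acta1 and Myh2), and of the slow-muscle markers 7 of 8 were called lower. Their medians were -2.48 and -4.81 on the log2 scale, or -2.00 and -3.56 with genes that were not above background on any FLT-Surgery array set to their lower bound. Those genes were Mylpf and Casq1 of the fast list and Tnni1, Tnnc1, Myoz2 and Csrp3 of the slow list. They passed the filter through FLT-Sham alone, so the slow-muscle count is partly set by that filter. Of the markers tested, 4 of 4 erythroid, 4 of 5 adipocyte and 3 of 8 neutrophil genes were called lower, beside 6.65% of all probes, and of the osteoblast list Alpl (1 of 6). Of these lists, Slc4a1, Hbb-b1, Adipoq, Plin1, Cidec, Ltf, Mmp8 and Alpl were above background on no FLT-Surgery array. They passed the filter through FLT-Sham alone, so the counts are partly set by that filter. With lower bounds the medians moved from -5.15 to -3.66 (erythroid), -4.17 to -1.84 (adipocyte) and -2.82 to -2.09 (neutrophil). The summed Cy5 signal of the fast-muscle list was 1309142 to 11859674 in FLT-Sham and 239533 to 2418648 in FLT-Surgery. The part of these markers, and of the fewer probes above background in FLT-Surgery, in the lower values of Hk2, Pgam2, Eno3 and Ldhb was not tested.

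The ratios of the genes were set against the muscle markers over all 15 arrays, and differences between these correlations were not tested. The permutations shuffled arrays across the groups, so differences between groups enter each r and p. No correlation within a group is given. Pearson's r with the fast-muscle mean was 0.976 for Eno3, 0.960 for Pgam2 and 0.934 for Hk2, each with a permutation p of 1e-05, the smallest that the resamples allow, and an adjusted p of 6.67e-05 over 20 relations. Spearman's rho was 0.979, 0.979 and 0.957 (adjusted permutation p = 4e-05 in each), and r was 0.953, 0.944 and 0.921 without the 2 arrays farthest from the median. Within the first slide r was 0.982 for Eno3, 0.964 for Pgam2 and 0.929 for Hk2, and within the second 0.947, 0.922 and 0.958, with 7 arrays in each. For Ldhb r was 0.740 (adjusted permutation p = 0.0039) and rho 0.811 (adjusted permutation p = 0.00143), with r of 0.686 without the 2 farthest arrays, 0.943 on the first slide and 0.723 on the second. Pgk1 had r of 0.262 (permutation p = 0.346, adjusted 0.364) and rho of 0.436 (permutation p = 0.105, adjusted 0.117), with r of 0.506 without the 2 farthest arrays, -0.18 on the first slide and 0.716 on the second. These arrays share the reference RNA, the slide and their depth. The number of probes above background correlated with Pgk1 (r of 0.660), Aldoa (0.654), Hk2 (0.647), Pfkm (0.575), Eno3 (0.562), Gys1 (0.543) and Pgam2 (0.542) as well. The adjusted permutation p of these was 0.0132 to 0.0449. Without the 2 arrays farthest from the median of that number, r was 0.537, 0.314, 0.435, 0.294, 0.329, 0.214 and 0.351, in the same order.

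**Figure D4:**
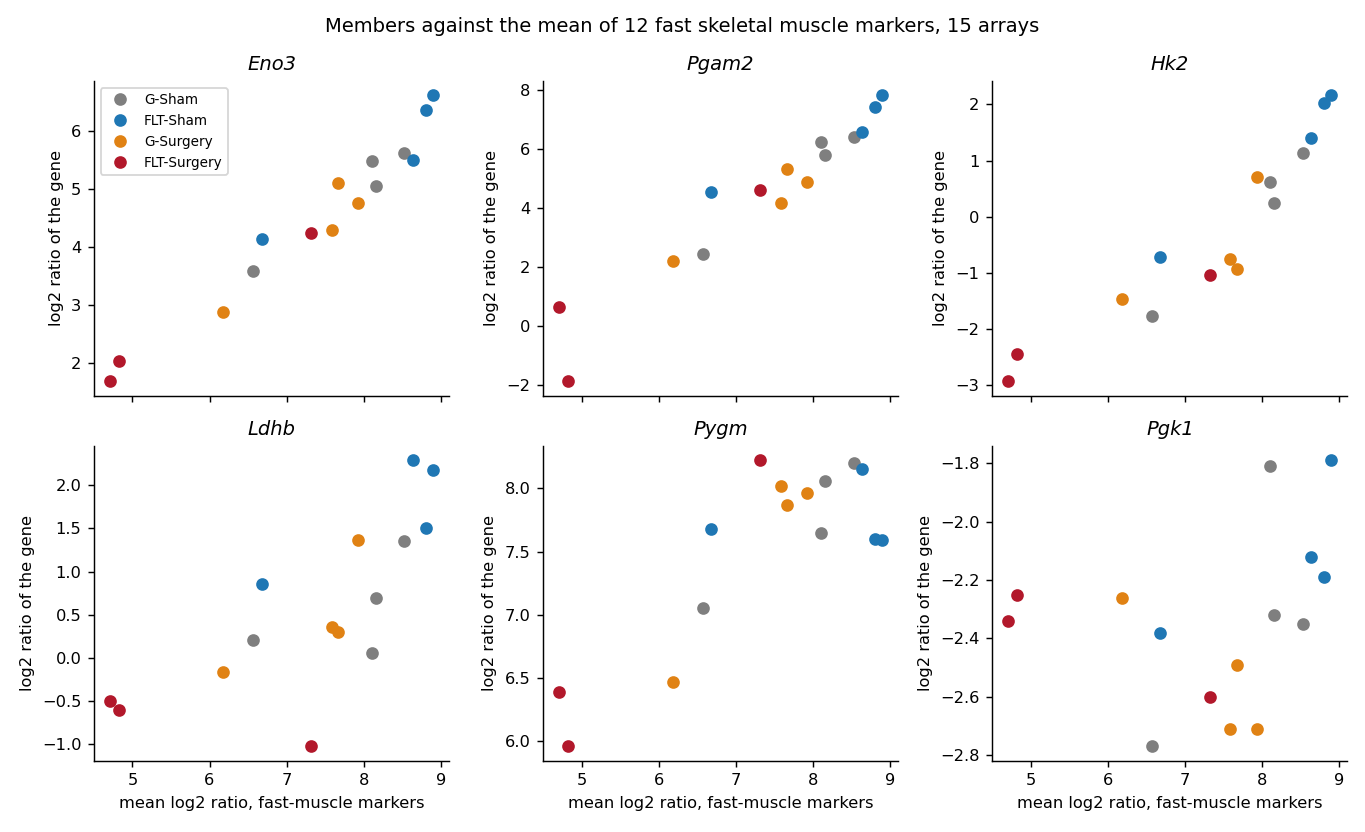
Log2 ratio of 6 genes on the vertical axes against the mean log2 ratio of 12 fast skeletal muscle markers on the horizontal axes, with 1 point per array coloured by group. Eno3, Pgam2 and Hk2 rise along the axis over all 15 arrays (r of 0.976, 0.960 and 0.934), Pgk1 spans 0.98 on the log2 scale (r of 0.262, or 0.506 without the 2 arrays farthest along the axis), and Pygm levels off at the right.

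The genes whose pattern was most like each of the 10 were taken by Pearson's r over the 15 arrays, as a description. For Pgam2 they were Myl1 (0.990), Gpd1 (0.986) and Adssl1 (0.982), and for Eno3 they included Cacna1s and Cox7a1 (0.986 each). Myl1 is a myosin light chain and Cacna1s the calcium channel of muscle. For Hk2 the closest were Timm17a (0.985), Slc25a4 and Pdk2 (0.978 each), and for Pfkm Chchd10, Vdac1 (0.986 each) and Cox4i1 (0.983), all of them genes of mitochondrial proteins. Ldhb had Dgat2 (0.927) at its head, and Pgk1 had Got2 (0.927), the mitochondrial aspartate aminotransferase.

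Pygm was one of the genes for which the ratio and the sample channel gave different pictures. Its ratio was 7.05, 8.06, 7.65 and 8.20 in G-Sham, 7.60, 7.59, 7.68 and 8.15 in FLT-Sham, 6.47, 7.96, 8.02 and 7.87 in G-Surgery and 8.22, 6.39 and 5.96 in FLT-Surgery. FLT-Surgery replicate 1 was the highest of all arrays and replicates 3 and 5 were the lowest. The Cy5 signal of the same spots was 145723, 183155, 26768 and 96715 in FLT-Sham and 40313, 13666 and 11090 in FLT-Surgery, so it differed between FLT-Sham replicates 6 and 8 where the ratio did not. The log2 Cy3 signal of the reference was 9.55 and 9.89 on FLT-Sham replicates 4 and 6 and 9.09 on G-Sham replicate 4, and 7.03 to 8.41 on the other arrays. Its range of 2.86 compares with 0.94 to 1.31 for the other 12 probes. With the Cy5 signal alone the Pygm fold change in surgery in spaceflight was -1.78 (adjusted p = 0.168 by limma), and with the ratio it was -0.90.

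The probes of Ldha did not all follow each other. Over the 15 arrays the brightest correlated with the dimmest at 0.71, while the second correlated with them at 0.30 and -0.31 and with Pgk1 at 0.80. The second probe stayed between -2.22 and -1.31 on every array. The third was at 1.67, 1.18, 0.11 and 0.86 in FLT-Sham and at 0.33, -0.57 and -0.60 in FLT-Surgery, lowest on the arrays with the least muscle-marker signal. Both probes of Gys1 correlated at 0.47.

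Spaceflight in unoperated mice, FLT-Sham against G-Sham, gave no call among the 13 probes, where 2% of 19739 probes were called. The fold change was above 0 for 12 probes and below 0 for 1, with a median of 0.27 beside 0.24 over all probes. At an unadjusted p of 0.05 or less stood Aldoa (1.48, interval 0.04 to 2.92, adjusted p = 0.514 by limma) and Ldhb (1.13, interval 0.10 to 2.15, adjusted p = 0.511 by limma). Aldoa was at 0.47, 1.21, 1.60 and 1.92 in G-Sham, so that 3 of 4 FLT-Sham arrays lay above it and replicate 8 within it. Without FLT-Sham replicate 8, Aldoa (2.03, adjusted p = 0.0626) and Ldhb (1.41, adjusted p = 0.0926) were past the cut-off by limma. That array also had the lowest fast-muscle mean of its group, and the part of this was not tested. Within the first slide Aldoa differed by 2.51 and Ldhb by 0.80, and within the second by 1.27 and 0.99. Pgam2 differed by 1.37 (interval -0.96 to 3.69) and Hk2 by 1.16 (interval -0.68 to 2.99), and Pgk1 by 0.19 (interval -0.54 to 0.93).

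Spaceflight in operated mice, FLT-Surgery against G-Surgery, gave no call either, where 3.14% of 16548 probes were called. The fold change was below 0 for 11 probes and above 0 for 2, with a median of -0.62 beside -0.20 over all probes. Ldhb differed by -1.18 with no overlap between the groups (interval -2.10 to -0.25, adjusted p = 0.28 by limma), which made 1 of 13 probes beside 13.6% of all probes. Hk2 differed by -1.52 (interval -2.98 to -0.06, adjusted p = 0.297 by limma) and the third Ldha probe by -0.86 (interval -1.64 to -0.08, adjusted p = 0.289 by limma). Pgam2 differed by -3.01 and Eno3 by -1.61, with intervals of -6.41 to 0.40 and -3.36 to 0.14. Within the first slide Ldhb differed by -0.72, Hk2 by -1.63 and Pgam2 by -4.51, and within the second by -2.40, -1.74 and -0.24. Without FLT-Surgery replicate 1, 3 probes were called, among them Pgam2 (-4.75) and Eno3 (-2.40). Of the muscle markers, 1 of 10 fast (Myh2) and 5 of 6 slow genes tested were called lower here, and their part was not tested. The slow markers Myoz2 and Csrp3 were above background on no FLT-Surgery array and passed the filter through G-Surgery alone.

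Surgery on the ground, G-Surgery against G-Sham, gave no call among the 13 probes, where 2.59% of 17675 probes were called, and no probe had an unadjusted p of 0.05 or less. The fold change was below 0 for 12 probes and above 0 for 1, with a median of -0.31 beside 0.14 over all probes. The farthest from 0 were Pgam2 (-1.08, interval -3.34 to 1.19) and Pfkm (-0.93, interval -2.07 to 0.21). Within the first slide they differed by -1.90 and -1.12, and within the second by 0.44 and -0.33. Without G-Sham replicate 1 Pfkm was called (-1.39, adjusted p = 0.187 by limma). The brightest Ldha probe did not overlap between the groups, at -0.08, 0.01, 0.21 and 0.10 against -0.43, -0.21, -0.21 and -0.16, beside 6.86% of all probes, and its difference of -0.31 had an interval of -0.79 to 0.17.

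Whether the spaceflight effect differed between operated and unoperated mice was tested as an interaction over all 15 arrays. Ldhb was called, with a difference of -2.31 on the log2 scale between its change in Surgery (-1.18) and in Sham (1.13), SE 0.62, interval -3.65 to -0.96 and adjusted p = 0.171 by limma. This made 1 of 13 probes where 5.33% of 21777 probes were called. Pgam2 (-4.38), Hk2 (-2.68), Eno3 (-2.32) and Aldoa (-1.89) had intervals below 0 and unadjusted p of 0.0309 to 0.0453, but were not past the cut-off (adjusted p = 0.224 to 0.249 by limma). Pgk1 differed by -0.05 (interval -0.90 to 0.81). The interaction and the comparisons of 2 groups use the same arrays, so their values are not independent of each other. With a second loess of the signals the Ldhb interaction was no longer called.

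The sister genes used outside muscle were read beside the muscle forms. In surgery in spaceflight the liver and platelet phosphofructokinases Pfkl and Pfkp changed by 0.71 (SE 0.51) and 0.39 (SE 0.56), the brain-type mutase Pgam1 by -0.16 (SE 0.57), the ubiquitous enolase Eno1 by 0.79 (SE 0.52) and hexokinase Hk1 by -0.04 (SE 0.31), and none was called. The brain glycogen phosphorylase Pygb, above background on 4 of these 7 arrays, changed by -0.28 (SE 1.02). Pygl, the liver phosphorylase, was called lower by 2.19 on the log2 scale (log2 fold change -2.19, SE 0.53, adjusted p = 0.136 by limma), and its interaction was called as well (-2.54, adjusted p = 0.167). The liver glycogen synthase Gys2 was not above background on any array. The difference between a muscle form and its sister gene was not tested.

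The other genes of the pathway were counted by lists. In surgery in spaceflight, glucose and lactate transport had 1 of 6 genes called lower, namely Slc2a4, the insulin-responsive glucose transporter GLUT4, whose mean log2 ratio was 8.38 ± 1.62 (SD, n = 4) in FLT-Sham and 4.04 ± 2.07 (SD, n = 3) in FLT-Surgery. Among the other glycolytic enzymes 1 of 14 tested was called lower, near the 6.65% of all probes, with a list median of -0.10. That gene was Ldhd, a D-lactate dehydrogenase, which was not above background on any FLT-Surgery array and was at least 5.97-fold lower there, having passed the filter through 3 FLT-Sham arrays alone. Tpi1 (-1.58, SE 0.54) and Pkm (-1.21, SE 0.48), from the middle and the end of the pathway, were not past the cut-off (adjusted p = 0.162 and 0.187 by limma). Gapdh changed by -0.39 (SE 0.37).

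Among the regulators of glycolysis 3 of 7 tested were called lower in surgery in spaceflight, beside 6.65% of all probes. Pdk4 and Pdk2, kinases that shut pyruvate dehydrogenase, changed by -7.08 (SE 1.20, adjusted p = 0.0884 by limma) and -3.52 (SE 0.98, adjusted p = 0.145 by limma), with Pdk4 above background on 1 of 3 FLT-Surgery arrays. Tigar, a fructose-bisphosphatase, was not above background in FLT-Surgery and was at least 8.93-fold lower than in FLT-Sham. It passed the filter through FLT-Sham arrays alone, as did Pdk1, which was tested and not called. The median of the list was -3.52, or -3.44 with lower bounds.

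In glycogen synthesis 6 of 10 tested genes were called lower, beside 6.65% of all probes. Gyg, the protein primer of glycogen, changed by -4.40 (SE 1.06), Ugp2, which makes UDP-glucose, by -3.42 (SE 0.91) and Pgm1, which feeds it, by -2.22 (SE 0.65), with adjusted p of 0.136 to 0.149 by limma. The muscle glycogen-targeting subunit Ppp1r3a changed by -3.59 (SE 1.02), and its relatives Ppp1r3c and Ppp1r3d were at least 12.6-fold and 2.10-fold lower, since neither was above background on any FLT-Surgery array, and both passed the filter through 3 FLT-Sham arrays alone. Among the glycogen breakdown genes reported, 2 of 10 tested were called lower, namely Pygl and the muscle phosphorylase kinase subunit Phka1 (-3.80, SE 1.07). The medians of these lists were -2.91 and -1.82, or -2.25 and -0.88 with lower bounds. In the other comparisons of 2 groups only Ppp1r3d was called, at least 2.24-fold higher in FLT-Sham, where 3 of 4 arrays were above background, than in G-Sham, where none was, so it passed the filter through the higher group alone. The interaction also called Ppp1r3d, Gsk3a (-1.29, SE 0.40) and Gsk3b (-1.41, SE 0.42), the last of these being kinases that inhibit glycogen synthase.

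**Figure D5:**
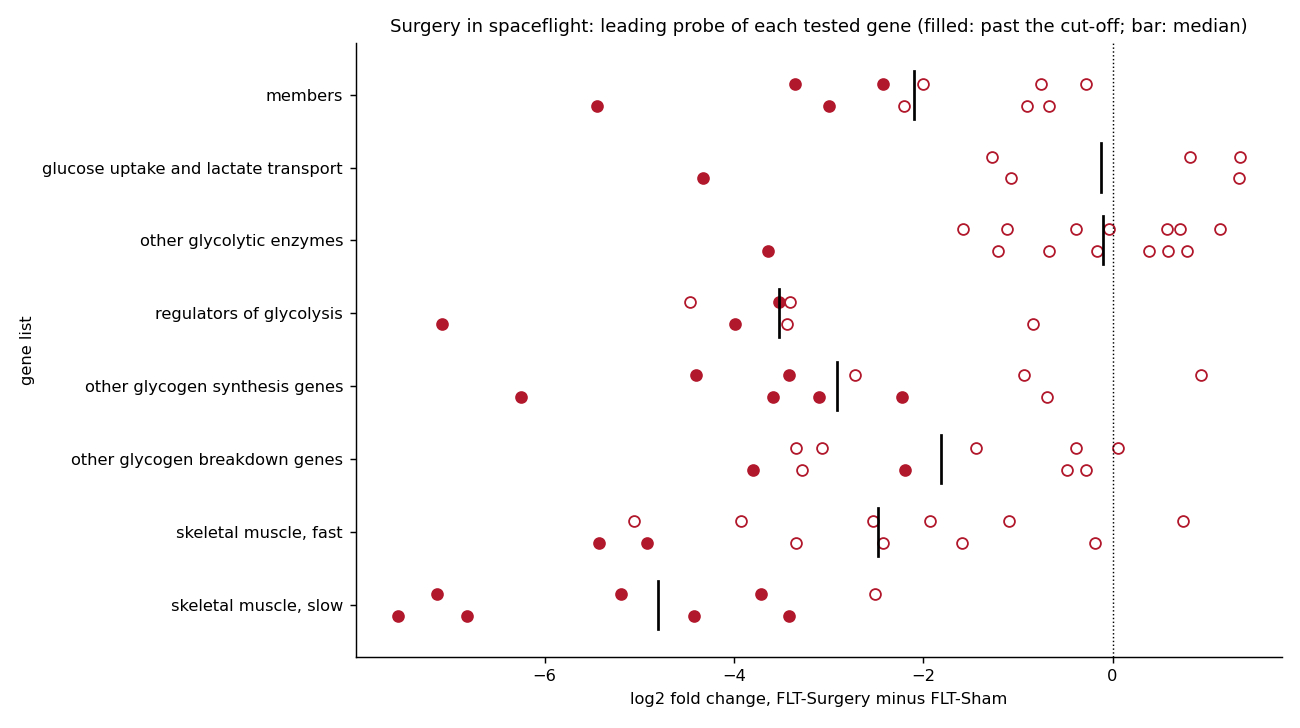
Log2 fold change of FLT-Surgery minus FLT-Sham on the horizontal axis, with 1 point for each tested gene of a list (fitted values, also for genes that were not above background in FLT-Surgery), where filled points are past the cut-off and bars are list medians. Other glycolytic enzymes centre at -0.10, glycogen synthesis genes at -2.91 and slow-muscle markers at -4.81.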

How the data were processed

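Expression was measured in 15 femoral samples, grouped by their labels (treatment and sample group). The study's methods count mice as the unit of each group, and the labels number the samples separately without tying each array to a named mouse. The authors deposited the output of Agilent Feature Extraction (version 12.0 per the submitters' processing notes) for each array, namely the background-subtracted and dye-normalized intensity of both channels and their log10 ratio. The deposited series table holds the same log10 ratio to within 0.005. No columns of other series were found. No Cy5 spot was saturated, and precision is limited by how many arrays there are. The study also names the sub-optimal quality of its RNA as a limitation, and its part in these values was not tested.

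The deposited log10 ratio was converted to log2. The scanner software had already applied a linear and LOWESS dye normalization, so no further loess was used in the main setting, which was decided with earlier results of these data known. The members and gene lists were chosen with those results known too. Outlier-flagged spots were dropped before averaging over a probe's spots. A probe entered a comparison if at least 3 of its arrays had Cy5 well above background. Each fit (limma 3.58.1, R 4.3.3) used only the groups concerned, or all 15 arrays for the interaction, and p-values were adjusted by Benjamini-Hochberg over all probes tested. The cut-off was that of the study. Of the probes, 28026 were matched to a symbol by accession in the RefSeq table. A gene with several probes is led by the brightest.

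Genes named are the 10 members with every probe, the genes of 5 pathway lists past the cut-off, 8 sister genes of members, and for each member the 3 genes with the highest correlation. Lists of 7 cell types (fast and slow skeletal muscle, osteoblast and osteocyte, erythroid, neutrophil, adipocyte, chondrocyte) were read as counts. Tpi1, Pkm, Gapdh and single genes of the cell type lists were named after their values were seen. For a gene that no array of a group detected, a lower bound of the fold was set in the Cy5 channel, after loess and Aquantile normalization, against the lowest signal above background of each array, and this bound is exposed to dye bias, as there was no dye swap. Correlations used 100000 permutations. Alternatives were a second loess, centring on the array median, Cy5 alone scaled to the 75th percentile, normexp (offset 50, on median signals) with loess, other filters, all arrays in 1 fit, slide and replicate blocks, array weights, and each array left out. The script was tested on simulated data. The counts and medians of the lists leave out an item that is not reported here.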

Additional observations from a re-analysis of the deposited data

Results flagged for a closer look

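Of 39 groups of 4 arrays examined, 8 had an array whose gap to the others exceeded Dixon's 95% value, where chance flags about 1 in 20 groups, or 1.95 here. G-Surgery replicate 1 was the low array in 4 of them, at 0.36 for Aldoa (the others 1.15 to 1.27), -0.43 for the brightest Ldha probe (-0.21 to -0.16), 6.47 for Pygm (7.87 to 8.02) and 0.53 for the brightest Gys1 probe (0.84 to 0.88). This array also had the lowest fast-muscle mean of its group, 6.18. G-Sham replicate 1 was low for Pgam2, at 2.44 where the others were 5.79 to 6.41, and it too had the lowest fast-muscle mean of its group, 6.57. FLT-Sham replicate 9 was high for Pygm, at 8.15 (7.59 to 7.68). For the dim Gys1 probe, G-Sham replicate 3 was high at 0.20 (-0.84 to -0.67) and FLT-Sham replicate 8 low at -0.86 (-0.27 to -0.15). The spaceflight effect on Ldhb differed between Surgery and Sham by -2.31 on the log2 scale in the interaction (adjusted p = 0.171 by limma). It was the 1 of 13 probes called there, beside 5.33% of all probes tested, and was not called with a second loess. The cause of these values was not tested.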

How the results depend on the processing

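The 4 calls in surgery in spaceflight became 2 with no filter on dim probes, 7 with 1 fit over all 15 arrays, 7 with array weights, 1 with a slide block, and 1 to 7 when 1 array was left out. With array weights 3 probes were called in spaceflight in Sham, 1 in spaceflight in Surgery and 6 in the interaction. Spaceflight in Surgery also had 1 call with slide as a block and 1 with both channels above background on every array. The interaction had 0 calls with a second loess. Leaving out 1 array gave 0 to 2 calls in spaceflight in Sham (2 without FLT-Sham replicate 8), 0 to 3 in spaceflight in Surgery (3 without FLT-Surgery replicate 1), 0 to 1 in surgery on the ground (1 without G-Sham replicate 1) and 1 to 3 in the interaction (3 without FLT-Sham replicate 8 or FLT-Surgery replicate 1). Replicate numbers did not pair the samples, since same-numbered arrays deviated together with correlations of -0.415 to 0.344. The replicate block gave 0 calls in both comparisons where it could be fitted, and it could not be fitted where groups share fewer than 2 numbers.

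Hk2, Pgam2, Eno3 and Ldhb stayed below 0 in surgery in spaceflight under each planned setting that gave a value. Hk2 and Pgam2 were not tested where both channels had to be above background on every array. Scaling moved the whole array. The median over all probes in surgery in spaceflight was -0.28, and 0.35 with a second loess, and the share of called probes that were higher was 6.37% and 51.7%. In spaceflight in Surgery the medians were -0.20 and 0.29 and the shares 33.3% and 94.8%, in spaceflight in Sham 0.24 and -0.13 with 89.6% and 65.2% (30.3% with normexp), on the ground 0.14 and -0.08 with 80.3% and 56.9%, and in the interaction -0.37 and 0.49 with 6.72% and 74.0%.

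Small fold changes changed sign. In spaceflight in Sham Pygm gave -0.25 with loess, -0.01 with the slide block, -0.20 with array weights and -0.22 to 0.17 with 1 array left out, and with normexp Pgk1 gave -0.07 and Ldha -0.48. In spaceflight in Surgery Gys1 gave 0.22 with loess, 0.02 with Cy5 alone, 0.05 with array weights and -0.26 to 0.03 with 1 array left out, Pgk1 gave -0.12 with median centring, Aldoa gave 0.12 and Ldha 0.39 with Cy5 alone, and Aldoa 0.11 and Ldha 0.22 with normexp. On the ground Ldhb ranged from -0.42 to 0.15 and Pygm from -0.39 to 0.21 with 1 array left out. In surgery in spaceflight with normexp Pgk1 gave 0.17 and Ldha 0.24. In the interaction Pgk1 gave 0.06 with loess, 0.05 with Cy5 alone, 0.26 with normexp, 0.03 with array weights and -0.22 to 0.11 with 1 array left out, Pygm gave 0.08 and Gys1 0.14 with loess, and Ldha gave 0.12 with Cy5 alone and 0.69 with normexp.

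A setting chosen after seeing the data subtracted the mean of the fast-muscle markers from each array, and left 0 calls in surgery in spaceflight. There Hk2 gave -0.71, Pgam2 -2.81 and Eno3 -0.36, still below 0. Pfkm gave 0.64, Aldoa 0.44, Pgk1 2.36, Ldha 1.97, Ldhb 0.22, Pygm 1.74 and Gys1 1.89. The subtraction shifts every gene of a comparison by the same amount. For the other comparisons only the genes that changed sign are listed. In spaceflight in Surgery Hk2 gave 0.21, Pfkm 1.33, Aldoa 1.32, Eno3 0.12, Ldha 1.54, Ldhb 0.55, Pygm 1.01 and Gys1 1.63. On the ground Aldoa gave 0.19, Pgk1 0.27, Ldha 0.19, Ldhb 0.38, Pygm 0.34 and Gys1 0.11, and in spaceflight in Sham Pgk1 gave -0.22, Ldha -0.25, Pygm -0.40 and Gys1 -0.14. The cause of these changes was not tested, apart from the subtraction itself in the last setting.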
